A study of Mus musculus with 8 samples.

Results

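The transcripts of 10 genes that report on, or hold back, signalling from fibroblast growth factor (FGF) receptors to the kinase ERK were followed after dTAG-13 treatment of organoids with a degradable METTL3, the RNA methyltransferase that makes N6-methyladenosine (m6A). They were chosen by name as FGF-ERK target and feedback genes: the ligand Fgf15, the inhibitors Spry1, Spry2, Spry4, Spred1 and Spred2, the phosphatases Dusp4 and Dusp6, and the transcription factors Etv4 and Etv5. Every deposited table listed each of the 10 genes as a single locus, among 35494 loci for the 1 h comparison and 35541 for the 8 and 24 h comparisons.

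The RNA came from mouse retinal organoids at day 6 of differentiation, which model the early optic vesicle. All samples, untreated ones included, carried a GFP reporter at Rx and an FKBP12F36V-HA tag at the C-terminal end of the METTL3 protein from both Mettl3 alleles. The small molecule dTAG-13 directs a protein with this tag to degradation. It was given at 125 nM for 1, 8 or 24 h, and the 0 h group received no dTAG-13; whether the 0 h organoids received the solvent is not given in the sources used here. The labels place treatment at days 5 and 6 and collection at a common time. Each of the 4 groups had 2 samples. A single edited line is named in the labels, no line without the tag was analysed here, and the METTL3 protein was not measured here.

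FGF ligands bind receptor tyrosine kinases, which act through RAS, RAF and MEK to activate ERK. Active ERK raises transcription of ETS factors such as Etv4 and Etv5, and of its own inhibitors: Sprouty and Spred proteins act upstream at RAS and RAF, and DUSP4 and DUSP6 remove phosphate from ERK or its relatives. Levels of these transcripts are therefore widely used as a readout of the pathway. In the eye, FGF signals favour neural retina over pigment epithelium, and Fgf15 is a known transcript of the early neural retina.

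For every treated time the authors deposited its own comparison with 0 h, in which both samples of a group had already been merged into 1 value. The spread between replicates is not visible, so no test across samples was possible. Levels are in FPKM (fragments per kilobase of transcript, scaled to the library), and the range after each level is the interval deposited with it, whose level is not given in the sources used here. A log2 ratio is log2 of treated over 0 h with 0.1 FPKM added to both, and the range after a log2 ratio is a 95% interval computed from the deposited variances of the estimated counts. A gene of at least 1 FPKM in 1 of the conditions was tested, and was called changed when its deposited intervals were apart and its ratio reached 1.5-fold in either direction. Each condition totalled 31361518 to 32562075 estimated counts; these had been scaled, so sequencing depth per library is unknown.

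None of the 10 genes was called at any time, with 9 of them tested. Over all 13690 loci tested at 1 h, 0.402% were called (0.117% higher and 0.285% lower). Among 13825 loci at 8 h the share was 4.43% (3.49% higher and 0.94% lower), and among 13910 loci at 24 h it was 5.48% (3.83% higher and 1.65% lower). With shares this small, a count of 0 among 9 genes does not set them apart from other loci. Spry4 stayed under 1 FPKM in every condition and was not tested. For all 10 genes the deposited intervals of treated and untreated organoids overlapped at 1, 8 and 24 h. By the 1.5-fold criterion alone, without the intervals, none of the 9 was called either, while 5.16%, 13.7% and 17% of loci were at 1, 8 and 24 h.

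**Figure D1:**
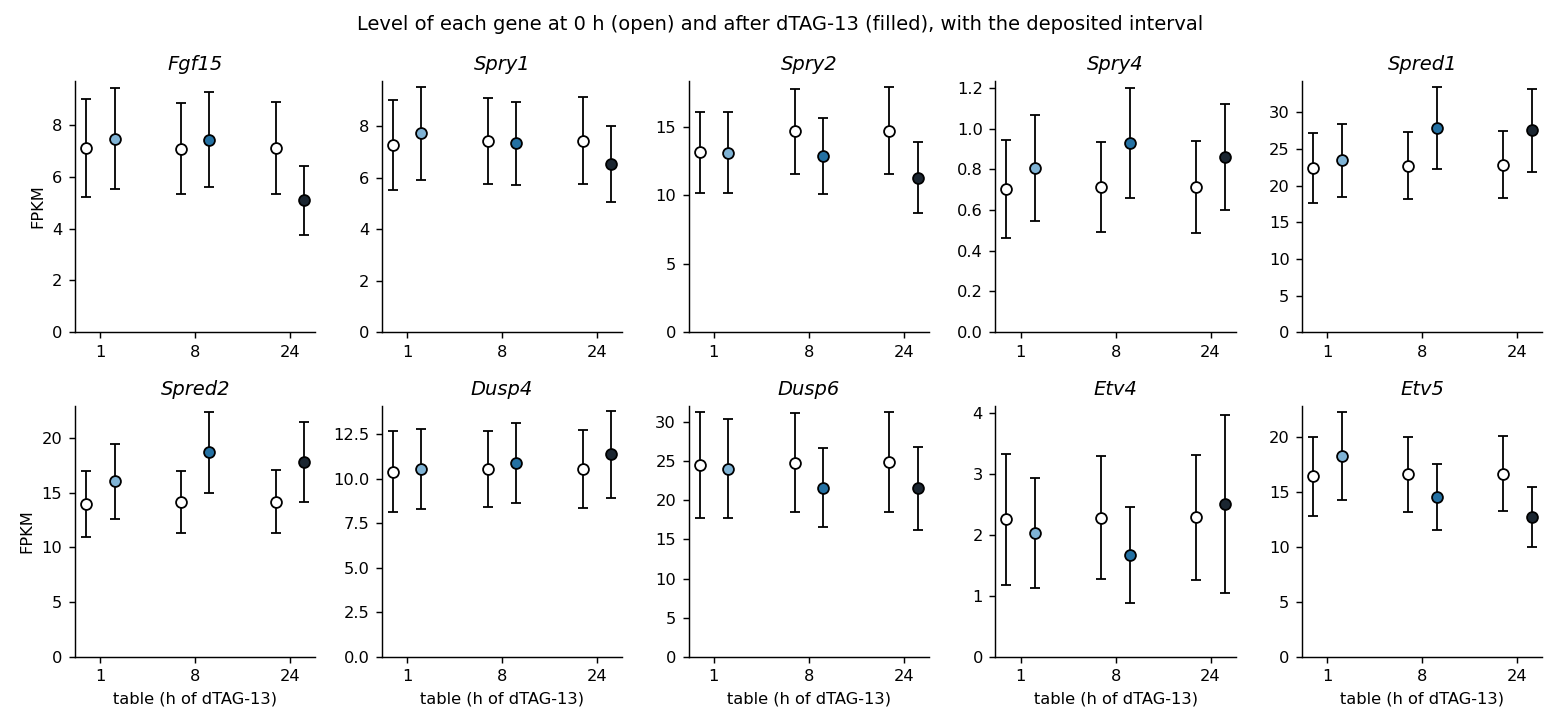
Level of each gene in FPKM (vertical axis, from 0) at 0 h (open circles) and after dTAG-13 (filled circles) in the 1, 8 and 24 h tables (horizontal axis), with the deposited intervals as bars. The intervals of treated and untreated organoids overlap for each of the 10 genes in each table.

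Before treatment the genes covered a wide range of levels. In the 24 h table Dusp6 was highest at 0 h, at 24.9 FPKM (18.5 to 31.3), a level above 69.3% of the tested loci. Spred1 followed with 22.8 (18.2 to 27.4), and then Etv5 with 16.6 (13.2 to 20.1). Spry2 had 14.7 (11.5 to 17.9), Spred2 14.2 (11.3 to 17.0) and Dusp4 10.6 (8.39 to 12.8). These 6 genes formed a chain in which each gene's interval overlapped that of the next. Spry1 at 7.44 (5.76 to 9.13) and Fgf15 at 7.11 (5.33 to 8.88) were nearly level, and the Spry1 interval reached that of Dusp4. Etv4 was below Fgf15 with no overlap, at 2.29 (1.26 to 3.32), and Spry4 was lowest, at 0.715 (0.489 to 0.941), again without overlap with the gene above it. Before 1 h of treatment the order was the same except that Spred2 stood above Spry2.

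The 0 h libraries are shared by all 3 tables, and their values show how far table construction alone moved a gene. From the 8 h to the 24 h table the 0 h FPKM of each of the 10 genes differed by a factor of 1.00. From the 1 h to the 8 h table the factor was 0.995 to 1.02 for 9 of them and 1.12 for Spry2, whose 0 h level went from 13.1 to 14.7. The Spry2 locus spanned 4873 bases in the first of these and 5849 in the later ones. Spry2 values are therefore compared within a table only, as are all others.

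Fgf15 encodes the secreted ligand, the mouse counterpart of human FGF19. The gene lies on the plus strand of chromosome 7 at 144896531 to 144900953 (GRCm38). Its level was 7.47 (5.53 to 9.41) at 1 h against 7.12 (5.22 to 9.01) untreated. After 8 h it was 7.42 (5.59 to 9.25), against 7.08 (5.33 to 8.83). At 24 h it was 5.09 (3.76 to 6.43), against 7.11 (5.33 to 8.88) at 0 h. The 24 h level was the lowest of all its values, with a log2 ratio of -0.47 (-0.97 to 0.02), the lowest of the 9 tested genes at that time and above 9.54% of tested loci. The ratios at 1 and 8 h were both 0.07. The estimated counts gave -0.46 at 24 h, from 356 to 259. An antisense gene, Gm26793, overlaps Fgf15 and held 21.3 estimated counts at 0 h in the 24 h table; whether counting used strand is not given in the sources used here. In bulk RNA, fewer cells that express a gene and less RNA per cell cannot be told apart.

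Sprouty proteins are induced by ERK and block activation of RAS or RAF below the receptor. Spry2 (chromosome 14, 105891947 to 105896819, minus strand) had 13.1 FPKM at both 0 and 1 h, 12.8 (10.1 to 15.6) at 8 h against 14.7 (11.5 to 17.8), and 11.3 (8.67 to 13.9) at 24 h against 14.7 (11.5 to 17.9). The treated level was thus nearly equal to the untreated one at 1 h and below it in the other tables, with log2 ratios of -0.00, -0.19 and -0.38. The 24 h interval, -0.81 to 0.05, included 0. Spry1 (chromosome 3, 37639947 to 37644598, plus strand) had 7.73 (5.92 to 9.54) at 1 h against 7.27 (5.52 to 9.01), 7.35 (5.74 to 8.95) at 8 h against 7.42 (5.75 to 9.08), and 6.52 (5.05 to 7.996) at 24 h against 7.44 (5.76 to 9.13). Its log2 ratios were 0.09, -0.01 and -0.19. The annotation places Gm42922 on the opposite strand across the start of Spry1, and the Spry1 locus of the 8 and 24 h tables extends into Gm43820; neither has a locus of its own name in the 24 h table. Spry4 (chromosome 18, 38586247 to 38601415, minus strand) was measured from about 105 estimated counts at 0 h in the 24 h table. Its treated values were above the untreated ones in all 3 tables: 0.808 against 0.704 at 1 h, 0.928 against 0.713 at 8 h and 0.861 against 0.715 at 24 h, each with overlapping intervals.

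The Spred proteins, which carry a Sprouty-related domain and bring the RAS inhibitor neurofibromin to the membrane, had treated values above the untreated ones in every table. Spred2 (chromosome 11, 19924375 to 20024026, plus strand) had 16.01 (12.6 to 19.5) at 1 h against 13.96 (10.98 to 16.9), 18.7 (14.96 to 22.4) at 8 h against 14.1 (11.3 to 16.9), and 17.8 (14.2 to 21.4) at 24 h against 14.2 (11.3 to 17.0). Its log2 ratio of 0.40 at 8 h was the highest of the 9 tested genes at that time. Its 95% interval, 0.01 to 0.79, was the only one of the 30 intervals (10 genes at 3 times) that did not include 0, with no adjustment for their number. The estimated counts gave a lower ratio, 0.32, and an interval of the same width around that ratio would include 0. Spred1 (chromosome 2, 117121374 to 117182279, plus strand) had 23.4 (18.4 to 28.4) at 1 h against 22.5 (17.7 to 27.2), 27.9 (22.3 to 33.5) at 8 h against 22.7 (18.2 to 27.3), and 27.6 (21.9 to 33.2) at 24 h against 22.8 (18.2 to 27.4). Its log2 ratios were 0.06, 0.29 and 0.27. At 8 h the ratio of Spred1 was above that of 76.9% of tested loci, and the ratio of Spred2 above 83.3%.

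DUSP6 is a cytoplasmic phosphatase that acts on ERK, and DUSP4 is a nuclear one. Dusp6 (chromosome 10, 99263231 to 99267489, plus strand) had 24.0 (17.7 to 30.4) at 1 h against 24.5 (17.7 to 31.3), 21.6 (16.5 to 26.7) at 8 h against 24.8 (18.4 to 31.2), and 21.5 (16.2 to 26.8) at 24 h against 24.9 (18.5 to 31.3). Its log2 ratios were -0.03, -0.20 and -0.21. By the count variances, the 24 h interval, -0.61 to 0.19, left room for levels up to 1.5-fold lower and slightly beyond. Dusp4 (chromosome 8, 34807297 to 34819894, plus strand) had log2 ratios of 0.02, 0.05 and 0.11, with 10.6 (8.32 to 12.8) at 1 h against 10.4 (8.14 to 12.7), 10.9 (8.65 to 13.1) at 8 h against 10.5 (8.40 to 12.7), and 11.4 (8.95 to 13.8) at 24 h against 10.6 (8.39 to 12.8). The 2 phosphatases therefore lay on opposite sides of 0 in all 3 tables, by amounts inside their intervals.

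Etv4 and Etv5 are ETS factors of the PEA3 type and direct transcriptional outputs of FGF signalling. Etv5 (chromosome 16, 22381309 to 22439719, minus strand) had 18.2 (14.2 to 22.2) at 1 h against 16.4 (12.8 to 20.0), 14.5 (11.5 to 17.5) at 8 h against 16.6 (13.2 to 20.0), and 12.7 (9.95 to 15.5) at 24 h against 16.6 (13.2 to 20.1). Treated values were above 0 h at 1 h and below it in the later tables, with log2 ratios of 0.15, -0.19 and -0.39. The 24 h interval, -0.79 to 0.01, just included 0. Etv4 (chromosome 11, 101769742 to 101785371, minus strand) was low and the least precise of the tested genes, with about 103 estimated counts at 0 h in the 24 h table. It had 2.03 (1.13 to 2.94) at 1 h against 2.26 (1.18 to 3.33), 1.67 (0.880 to 2.45) at 8 h against 2.28 (1.27 to 3.29), and 2.51 (1.04 to 3.97) at 24 h against 2.29 (1.26 to 3.32). Its log2 ratios were -0.14, -0.43 and 0.12, and the estimated counts gave 0.08, -0.22 and 0.16, so its sign at 1 h differed between FPKM and counts.

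**Figure D2:**
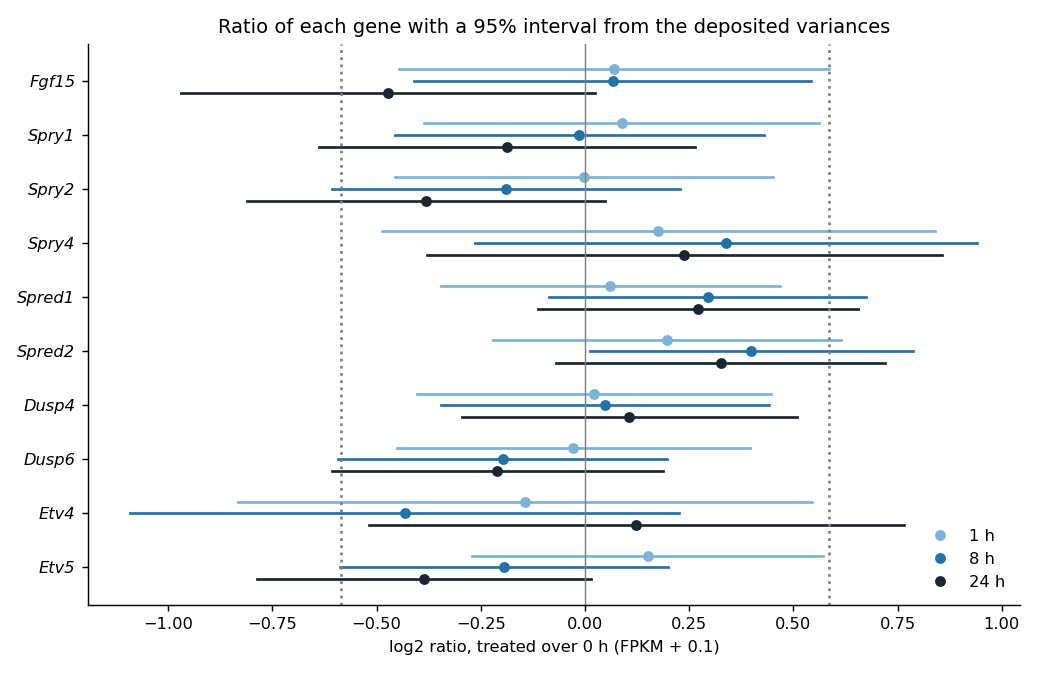
Log2 ratio of treated over 0 h (horizontal axis, FPKM with 0.1 added) for each gene at 1, 8 and 24 h, with 95% intervals from the deposited variances as lines and the 1.5-fold limits dotted. Points lie between -0.47 and 0.40, and the lines cross 0 except for Spred2 at 8 h.

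The intervals say how large a difference these data could still hold. By the count variances, all 10 genes had 95% intervals inside a 2-fold change in either direction at 1 and 24 h. At 8 h 9 of 10 did, the exception being Etv4, whose interval reached -1.09. The deposited FPKM intervals of Etv4 were wider than its count variances would give, with 1.26 to 3.32 at 0 h and 1.04 to 3.97 at 24 h. Its log2 intervals may therefore be too narrow, and a 2-fold change of Etv4 is not excluded at 1 or 24 h. Dusp6 also had deposited FPKM intervals wider than its count variances would give, and its log2 intervals may be too narrow as well. Within 1.5-fold the data were less decisive: 7 of the 9 tested genes had intervals inside that range at 1 h, 3 at 8 h and 1, Dusp4, at 24 h. Model standard errors of the log2 ratio were 0.19 to 0.35 for the 10 genes, and 0.22 to 0.24 for the median tested locus. They reflect the authors' variance model, since replicates were combined before deposit.

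The 9 tested genes had a median log2 ratio of 0.06 at 1 h, -0.01 at 8 h and -0.19 at 24 h. Over all tested loci the medians were 0.01, 0.01 and 0.02, and the quartiles at 24 h were -0.22 and 0.30. Of the 9 genes, 6 were above 0 at 1 h, 4 at 8 h and 4 at 24 h. At 24 h those below 0 were Fgf15, Etv5, Spry2, Dusp6 and Spry1, and those above were Spred2, Spred1, Etv4 and Dusp4. Apart from Fgf15 and Etv4, each of these genes was on the same side of 0 at 8 h; the 3 comparisons share the 0 h libraries.

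**Figure D3:**
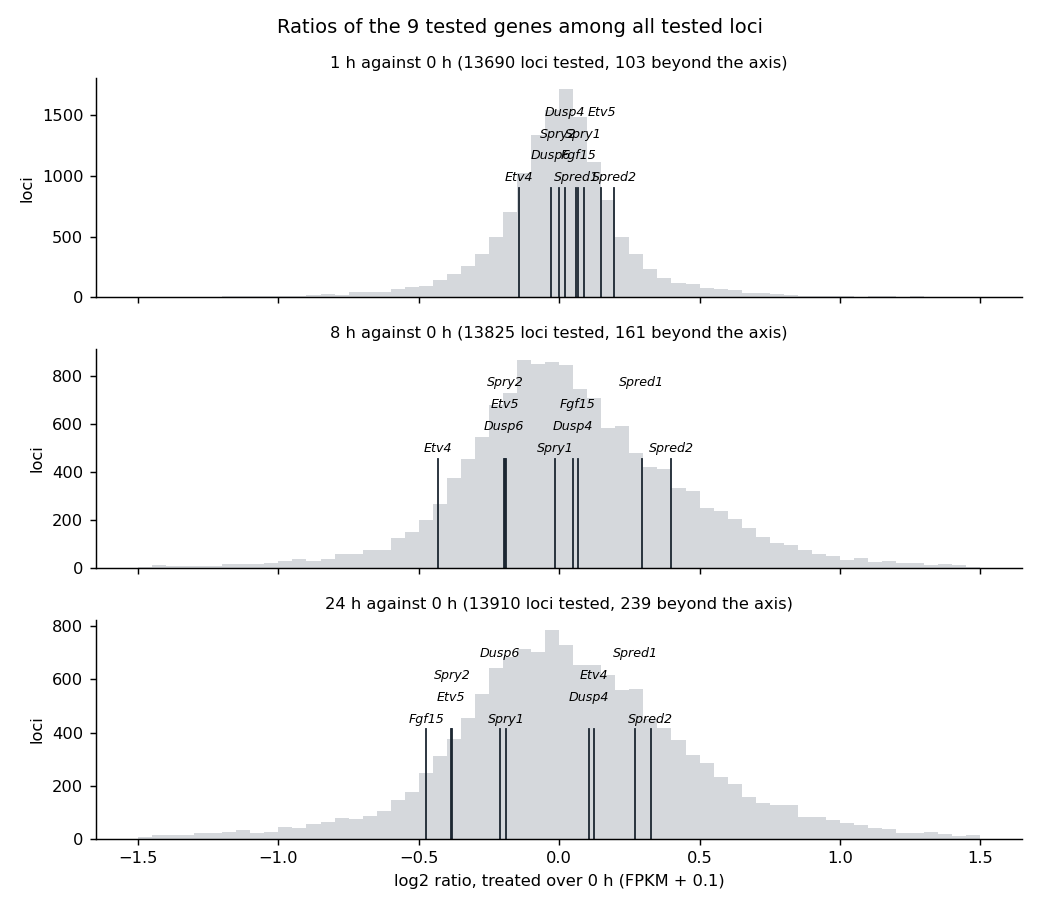
Number of loci (vertical axis) by log2 ratio (horizontal axis) at 1, 8 and 24 h, with the 9 tested genes marked as lines. The 9 genes lie between -0.14 and 0.20 at 1 h, between -0.43 and 0.40 at 8 h and between -0.47 and 0.33 at 24 h.

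Gene structure was examined next, because m6A is known to lie mainly in long exons and around stop codons, away from exon junctions. In these data genes with few junctions had higher log2 ratios at 8 and 24 h than other genes. Spry1, Spry2 and Spry4 each have their entire coding sequence, 939, 945 and 900 bases, in 1 exon, as do 5.91% of 11092 tested genes. Dusp6 has 1.75 coding junctions per kilobase of coding sequence, Dusp4 2.51 and Fgf15 3.06, densities above those of 12.1%, 16.4% and 19.8% of tested genes. Spred2 (4.07) and Spred1 (4.50) were intermediate, and Etv5 (7.19) and Etv4 (7.56) were above the median of 6.16.

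Set against genes of like structure, Spry1 and Spry2 stood low. The 656 tested genes with a single coding exon had a median log2 ratio of 0.38 at 8 h, with a lower quartile of 0.04 and 19.1% called higher. Spry1 at -0.01 lay above 21.8% of the others and Spry2 at -0.19 above 13.7%, while Spry4, itself under the FPKM minimum, lay near the middle at 0.34, above 46.5%. At 24 h the class median was 0.37, and the shares below were 15.5% for Spry1, 7.91% for Spry2 and 37.8% for Spry4. Dusp4, Dusp6 and Fgf15 belong to decile 2 of genes by junction density, whose median was 0.35 at 8 h and 0.31 at 24 h. Within that decile Dusp6 was above 7.85% of the other genes at 8 h and 10.9% at 24 h. Fgf15 was above 21.6% and 4.69%, and Dusp4 above 20.8% and 29.4%. Spred1 and Spred2 stood above the medians of their own deciles, higher than 74.3% and 72.8% of those genes at 8 h. Etv5, in decile 7, was above 30.6% at 8 h and 14.9% at 24 h, and Etv4, in decile 8, above 9.12% and 82.2%. These places are descriptions of single genes with the intervals given above, and no test was made of them.

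**Figure D4:**
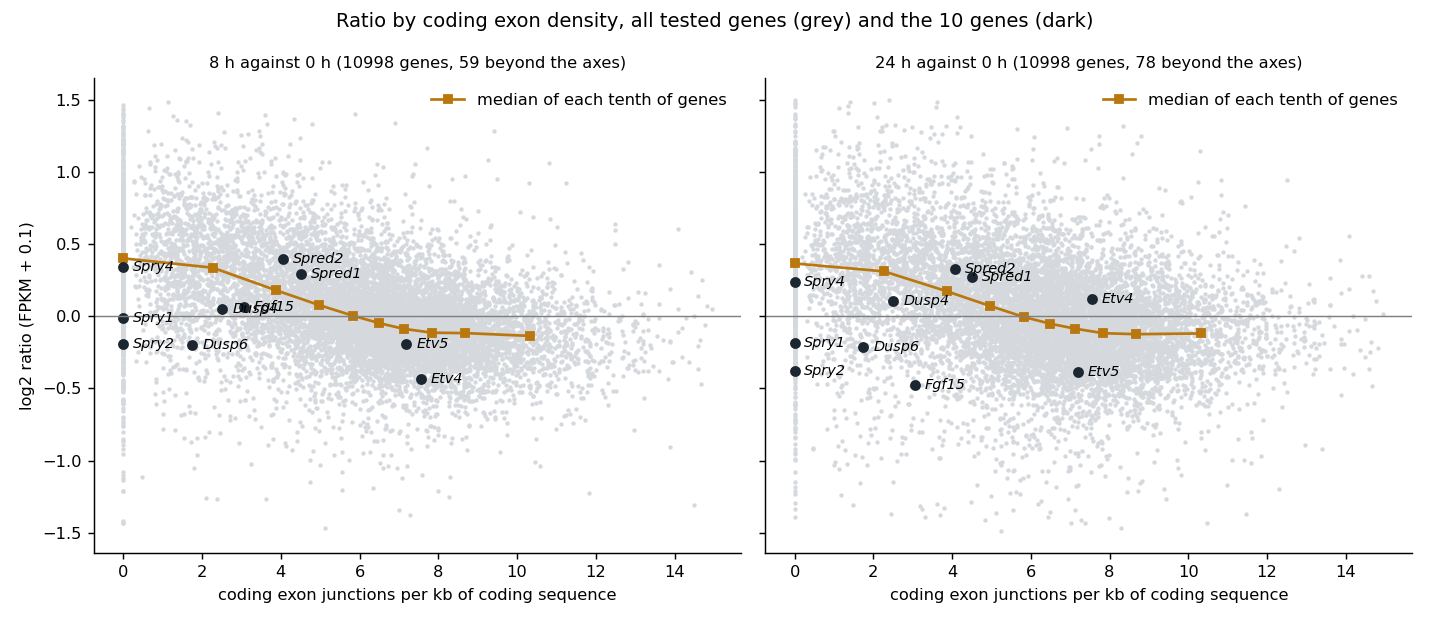
Log2 ratio (vertical axis) against coding exon junctions per kilobase of coding sequence (horizontal axis) at 8 and 24 h, for 10998 genes tested in both tables (grey), the medians of deciles of genes (squares) and the 10 genes (dark); 59 and 78 genes lie beyond the axes. Spry1, Spry2, Spry4, Dusp4, Dusp6, Fgf15 and Etv5 lie below the line of medians in both panels, and Spred1 and Spred2 above it. Etv4 lies below it at 8 h and above it at 24 h.

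METTL3 methylates adenosine within a short consensus of which GGACT is a frequent form in DNA letters. This motif was searched on the transcript strand of the representative GENCODE M21 transcript of each gene. Spry2 held 7 copies, or 3.35 per kilobase, above 98.8% of tested genes, and Dusp6 held 8 copies, or 2.86 per kilobase, above 97.3%. The median over genes was 1.05 per kilobase. Spry4 (0.421) and Etv4 (0.428) were among the poorest, with 2 copies and 1 copy. In the last 300 coding bases, the stretch before the stop codon, 3 of the 10 genes held the motif, a share of 30% against 30.7% of all tested genes with a coding sequence of that length. Those sites are shown here with the motif in capitals, in coding exons, because this stretch adjoins the stop codon, near which m6A is known to be frequent; copies elsewhere in the transcripts were counted but not placed:
Dusp6, first site from the coding end, chr10:99266266-99266294, plus strand, exon 3: cgtctaccaggtGGACTccctgcagtcta
Dusp6, next site, chr10:99266183-99266211, plus strand, exon 3: gaaaggaccctgGGACTgagcagcccttg
Fgf15, chr7:144899678-144899706, plus strand, exon 3: cagggaggaaatGGACTgtttaggctaca
Spry2, chr14:105893088-105893116, minus strand, exon 2: tcattgactatgGGACTtgtgtgtgctgt

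All coordinates of these sites are in GRCm38. The first Dusp6 site ends 14 bases before the end of its coding sequence, and the Fgf15 and Spry2 sites end 251 and 294 bases before theirs. A match is a stretch of letters and not a measured m6A site, as no m6A data were analysed here. The decile of genes richest in GGACT per kilobase had a median log2 ratio of 0.03 at both 8 and 24 h, against -0.04 and -0.03 in the poorest decile. The 3 genes in the richest decile differed in sign: Spry2 had -0.19 and -0.38 at 8 and 24 h, Dusp6 -0.20 and -0.21, and Dusp4, above 91.4% of tested genes in motif density, 0.05 and 0.11.

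Upstream of the 10 genes, ligands and receptors were present. The pathway lists held 109 other genes, of which 79 were tested at 1 and 8 h and 78 at 24 h. Of 21 other genes of the FGF family, 5 were tested at 24 h and none was called. Fgf13 was highest at 51.5 FPKM at 0 h, followed by Fgf4 (6.74), Fgf11 (3.84), Fgf9 (2.40) and Fgf12 (1.55). The log2 ratios of these 5 genes at 24 h ran from -0.27 to -0.05. Fgf11, Fgf12 and Fgf13 are intracellular members of the family that are not secreted, which leaves Fgf4 and Fgf9 as the secreted ligands among them. The receptor gene Fgfr1 had 40.3 (30.9 to 49.7) at 0 h and 44.8 (35.3 to 54.2) at 24 h. Fgfr2 shared its locus with Ctbp2 and gave no value of its own. Fgfrl1, a receptor-like protein without a kinase domain, had 6.53 (4.76 to 8.30) untreated and rose to 11.9 (9.15 to 14.7) after 24 h, with a log2 ratio of 0.86. It was the 1 called gene of 10 tested receptors and co-receptors. At 8 h its log2 ratio was 0.58, just short of 1.5-fold and with overlapping intervals.

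Among adaptors, RAS proteins and kinases from the receptor to ERK, none of 26 tested genes was called at 1 h and none of 25 at 8 or 24 h. Mapk3, which encodes an ERK kinase, had a log2 ratio of -0.19 at 24 h. The nucleotide exchange factor Sos1 had 0.43, with 14.4 (11.6 to 17.2) against 10.7 (8.59 to 12.8). The median ratio of this list was -0.01, 0.03 and 0.03 at 1, 8 and 24 h.

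Among other negative regulators, none of 21 tested genes was called at 1 h. Of 21 tested genes at 8 h, 2 rose and none fell, and of 22 at 24 h, 4 rose and none fell. Dusp16, a phosphatase with a preference for JNK and p38, rose from 11.1 (8.55 to 13.6) to 20.4 (16.5 to 24.3) at 8 h and from 11.1 (8.54 to 13.6) to 21.1 (16.8 to 25.5) at 24 h, log2 ratios of 0.88 and 0.92. Dusp14 rose from 1.76 (1.09 to 2.42) to 3.998 (2.86 to 5.14) at 8 h and was not called at 24 h, with 3.33 (2.32 to 4.33) against 1.76 (1.09 to 2.44). Errfi1, an inhibitor of the EGF receptor, rose by 0.69 on the log2 scale at 24 h. Dusp10, another phosphatase for JNK and p38, rose from 1.06 (0.669 to 1.45) to 2.197 (1.55 to 2.84) at 24 h, and its locus overlaps the low transcript 1700056E22Rik. Spry3, the remaining Sprouty gene, rose from 0.975 (0.685 to 1.26) to 1.78 (1.33 to 2.23) at 24 h. Its difference from Spry1, Spry2 and Spry4 was not tested.

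Among the other genes known to respond to ERK, 17 were tested at 1 and 8 h and 16 at 24 h, with 2, 3 and 3 of them called. Flrt3, a membrane protein that binds FGF receptors, rose from 43.7 (35.1 to 52.3) to 77.5 (62.4 to 92.7) at 24 h, and its locus overlaps that of Macrod2, which had 8.02 FPKM. The immediate early gene Fos rose at 1 and 8 h, with log2 ratios of 1.37 and 2.68. Its level at 8 h was 24.5 FPKM against 3.73 untreated. Egr1 rose at 8 h from 6.54 to 16.1 FPKM and Fosb from 0.304 to 3.86, log2 ratios of 1.28 and 3.29. At 24 h Fos and Egr1 were not called, with -0.26 and 0.09, and Fosb was under 1 FPKM and not tested. Ier3 fell at 1 h and rose at 24 h, and Ier2 fell at 24 h. Etv1, the third PEA3-type factor, was not called by FPKM, with log2 ratios of -0.10, -0.29 and -0.46. Its estimated counts gave lower ratios, -0.15, -0.73 and -1.003, going from 830 to 500.2 at 8 h and from 821 to 409.7 at 24 h. With counts in place of FPKM and intervals of 2 deposited standard deviations, Etv1 was called lower at 8 and 24 h. The cause of its gap between FPKM and counts was not tested. The same setting called Dusp7, of the other negative regulators, higher at 8 and 24 h, with log2 ratios of counts of 0.62 and 0.67. By FPKM Dusp7 had 14.4 (11.4 to 17.3) against 9.42 (7.35 to 11.5) at 8 h, with overlapping intervals. The co-receptor gene Sdc3 was called higher by counts at 24 h, at 0.66. Over all pathway lists 2.53% of 79 tested genes were called at 1 h (2 genes) and 6.33% of 79 after 8 h (5 genes). After 24 h the share was 10.3% of 78 (8 genes). Of all loci, 0.402%, 4.43% and 5.48% were called at 1, 8 and 24 h. With a 2-fold threshold 2 pathway genes were called at 1 h, 4 at 8 h and 0 at 24 h. The same threshold called 39, 217 and 297 of all loci.

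**Figure D5:**
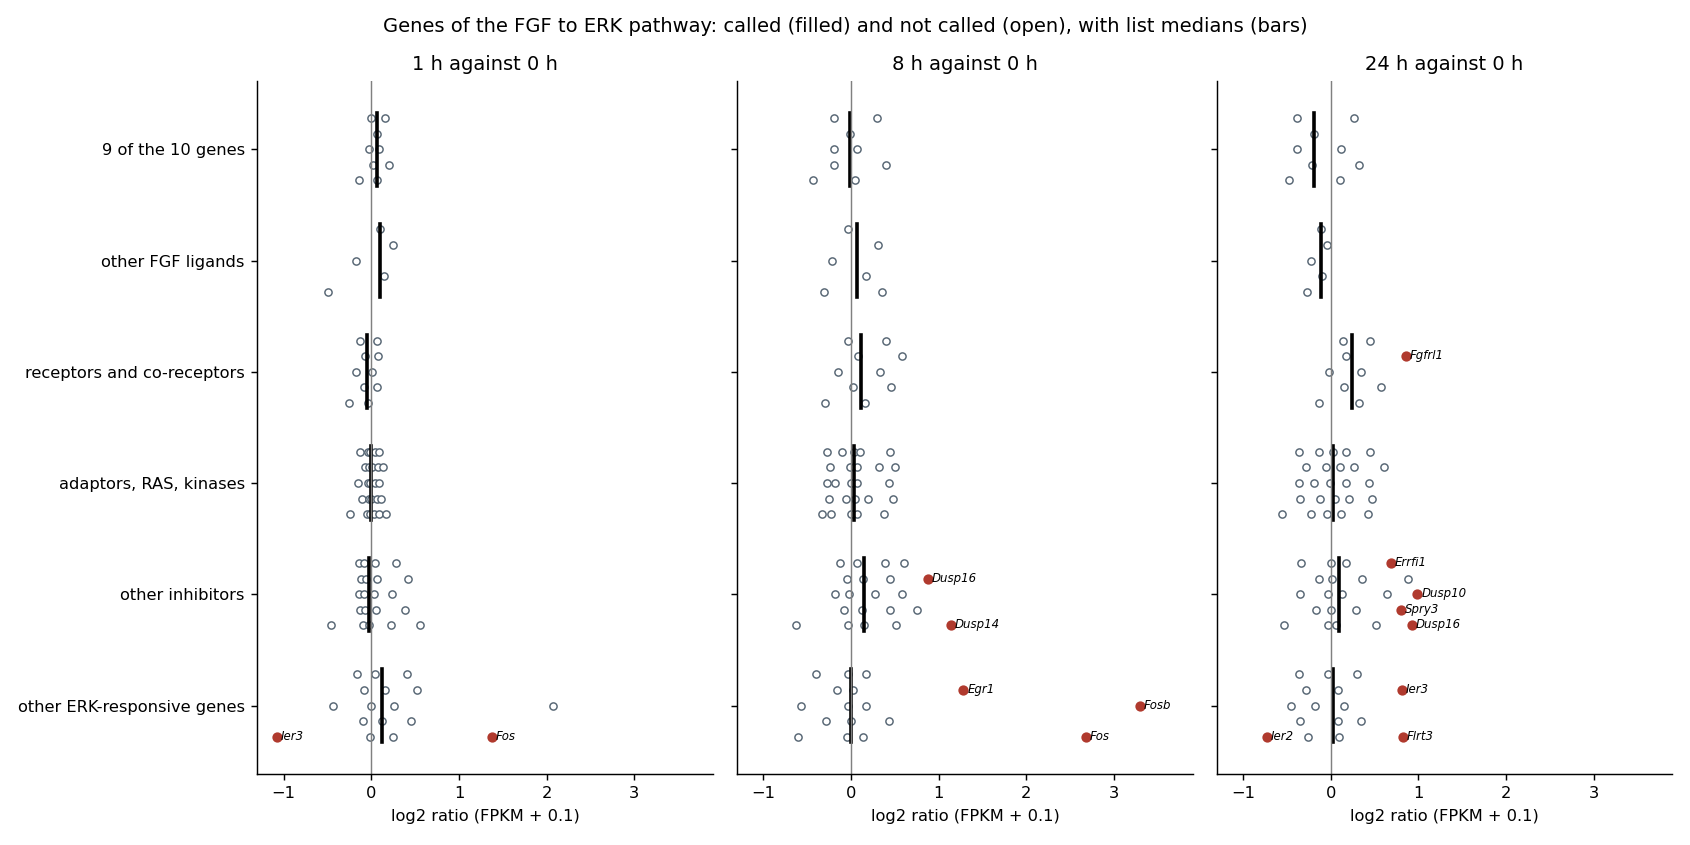
Log2 ratio (horizontal axis) of each tested gene at 1, 8 and 24 h, by list, with called genes filled and named, other genes open, and list medians as bars; vertical offsets within a list carry no value. The 9 tested genes hold no filled point, and the 4 called genes among other inhibitors at 24 h are Dusp16, Dusp10, Spry3 and Errfi1.

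The tissue label was checked against marker genes. At 0 h in the 24 h table the organoids expressed Lhx2 at 143 FPKM, Pax6 at 126, Otx2 at 116, Six6 at 55.4 and Rax at 49.9. Pluripotency transcripts were also present, with Dppa5a at 200.4 and Pou5f1 at 34.8. Summed over each list, early retina markers went from 559 to 748 FPKM at 24 h (7 tested, 2 called higher), pluripotency markers from 276 to 180 (4 tested, 1 called lower) and pigment epithelium markers from 59.7 to 96.4 (3 tested, none called). Most of the last 2 differences lay in 1 gene each. Dppa5a fell from 200.4 to 109.0, while Pou5f1 went from 34.8 to 28.8, Nanog from 20.8 to 18.9 and Zfp42 from 20.1 to 22.8. Pmel had 28.9 and 60.3 with overlapping intervals, Mitf 19.2 and 21.4, and Dct 11.6 and 14.6. Optic stalk markers went from 81.0 to 77.2 and the 3 tested telencephalon markers from 22.9 to 23.2. Markers of mesoderm, neural crest and endoderm summed to 0.811, 1.26 and 3.81 FPKM at 0 h. Of 5 neuronal markers, Dcx and Atoh7 had values of their own and summed to 0.365. The part of these cell type markers in the values of the 10 genes was not tested.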

How the data were processed

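Polyadenylated RNA of 8 samples (4 groups of 2, from the sample titles) was sequenced as paired-end reads. Per the submitters' processing notes, Cufflinks 2.2.1 and Cuffdiff were used with mm10; the aligner, annotation and strandedness are not given in the sources used here. The authors deposited 3 pairs of tables, each with FPKM and its interval, and with estimated counts and their variance, as 1 column per condition combined over replicates. The estimated counts need not be whole. As the columns are pooled, no count model was fitted.

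Ratios were formed within tables after adding 0.1 FPKM. The call rule (at least 1 FPKM, status OK, 1.5-fold, deposited intervals apart) was applied to all loci. Deposited intervals extended a median of 2.16 deposited standard deviations to each side. Intervals of log2 ratios are 1.96 standard errors, from the count variances without the added 0.1. Locus starts were read as 0-based. Coding structure and motifs come from GENCODE M21 (GRCm38), using the transcript of best APPRIS rank and then longest coding sequence. In all, 10 alternatives were run, with Python 3.11.15 and pandas 2.3.3. The text names all 10 genes and the pathway genes called at any time. Other pathway genes given with values (the tested FGF family genes, Fgfr1, Mapk3, Sos1, Etv1, Dusp7 and Sdc3) were chosen after their values were seen. The rule for naming genes of like pattern applied only to a called gene, and gave none. The 10 genes, the lists and the call rule were chosen with earlier results of these data known. Since nothing says that the 2 samples of a group came from separate cultures, the deposited intervals may reflect technical spread.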

Additional observations from a re-analysis of the deposited data

How the results depend on the processing

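None of the 10 genes was called at 1, 8 or 24 h under any of the 10 alternatives. Of 297 recomputed log2 ratios of these genes, 295 kept their sign. With estimated counts in place of FPKM the ratio at 1 h was 0.0068 for Spry2 and 0.0834 for Etv4, both below 0 by FPKM; the cause was not tested. The shift of Etv4, 0.23, was the largest of all. The number of loci called moved most with the fold criterion alone, to 707, 1896 and 2371 at 1, 8 and 24 h. A 2-fold threshold gave 217 loci at 8 h and 297 at 24 h. At 1 h, 95 loci were called with no FPKM minimum and 30 with at least 5 FPKM. Called pathway genes numbered 3 at 8 h with at least 5 FPKM, 9 at 8 h without the intervals, and 0 at 24 h with a 2-fold threshold. These numbers follow from the stricter limits or the dropped criterion. With the 2-fold threshold 2 pathway genes were still called at 1 h and 4 at 8 h. No paired analysis was possible because the deposited columns combine both replicates of a time, so no replicate could be left out either. Precision is limited by the number of samples and, for Spry4 and Etv4, by about 100 estimated counts.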
